A study of Mus musculus with 13 samples.

Results

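Glutathione enzymes and transferases are described here by 10 genes, picked by symbol out of the 55291 gene symbols of the count tables. They are the transferases Gstp1, Gstm1, Gstm5 and Gsta4, the peroxidases Gpx1 and Gpx4, the synthesis enzymes Gclc, Gclm and Gss, and the reductase Gsr. All 10 genes were counted in every library, with between 177 counts (Gss in control replicate 4) and 30149 counts (Gstm1 in ECL replicate 1), and all 10 entered each test. RNA was sequenced from the CA1 region of 13 entorhino-hippocampal tissue cultures: 5 non-lesioned controls, 4 cultures after Schaffer collateral lesion (SCL) and 4 after entorhinal cortex lesion (ECL). SCL cuts the axons that run from CA3 to CA1, ECL cuts the perforant path that comes from the entorhinal cortex, and each comparison asks how the remaining CA1 tissue differs 3 days later. All cultures carry the genotype wildtype and the strain C57BL/6 in their labels, and the culture protocol lists males and females of C57BL/6J and of Thy1-eGFP-M as the source. Slices were taken at postnatal day 4 to 5 and grown for at least 18 days in medium with horse serum, penicillin and streptomycin, so controls and lesioned cultures share an explanted, slice-grown hippocampus. Each library comes from the CA1 region of a single culture, scar tissue was not collected, and the labels do not say which cultures came from the same animal.

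Glutathione is the main small thiol of cells. Gclc and Gclm, the catalytic and the modifier subunit of glutamate-cysteine ligase, make the first and rate-limiting step of its synthesis, and Gss, glutathione synthetase, adds glycine. Peroxidases spend glutathione to remove hydrogen peroxide and lipid hydroperoxides, transferases couple it to reactive or foreign molecules, and Gsr, glutathione reductase, restores the oxidized form with NADPH. In brain, astrocytes are known for a high glutathione content and for feeding its precursors to neurons. Many of these genes can be switched on by the transcription factor Nrf2 (Nfe2l2) through antioxidant response elements.

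Library totals ran from 14371152 to 21092612 counts in controls. They reached 16405517 to 56786613 counts in SCL cultures and 20210165 to 46449937 in ECL cultures. Mitochondrially encoded genes took 6.07% to 7.96% of the counts in controls, 3.42% to 4.26% in SCL cultures and 4.1% to 5.38% in ECL cultures. By the column headings 2 of 5 controls, 1 of 4 SCL cultures and 3 of 4 ECL cultures were male. The library titles and the study name CA1 as the tissue, and the extraction protocol in the labels names the dentate gyrus instead. In controls, 4 CA1 markers summed to between 207 and 292 CPM, against 16.4 to 24.1 CPM for 4 markers of dentate granule cells and 16.7 to 27.6 CPM for 4 markers of CA3. CPM, a count scaled to a common library total, is taken here over 11649 genes with TMM factors, which correct for differences in composition between libraries.

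In the non-lesioned CA1 region the transferases of the mu class were the most abundant members per kilobase of exon. Exon length here merges the exons of all annotated transcripts of a gene, so it can exceed the length of any single transcript. Levels per kilobase of exon, in CPM per kb (mean ± SD, n = 5 controls), were 194 ± 38.7 for Gstm5 and 143 ± 35.5 for Gstm1. Gpx1 followed with 106.5 ± 15.4 CPM per kb, Gsta4 with 60.6 ± 8.76 and Gstp1 with 38.6 ± 6.11. Gsr (21.9 ± 3.97), Gpx4 (18.9 ± 7.37), Gclm (17.9 ± 2.07) and Gclc (16.5 ± 1.36) lay close together, and Gss was lowest at 2.47 ± 0.561 CPM per kb. Between neighbours in this order, the ranges over the 5 controls did not overlap between Gpx1 and Gsta4, Gsta4 and Gstp1, Gstp1 and Gsr, and Gclc and Gss. In these 4 pairs the first gene was higher in 5 of 5 libraries. A two-sided exact permutation test within libraries gave p = 0.0625, the smallest p that 5 libraries allow. The order was taken from the same libraries, so this p-value is no independent test of it. The other 5 pairs of neighbours, Gstm5 with Gstm1, Gstm1 with Gpx1, and Gsr, Gpx4, Gclm and Gclc in turn, overlapped. Gpx4 and Gstp1 share sequence with pseudogenes, so their places in this order are less certain. In controls the pseudogene Gpx4-ps2 held 168 CPM against 32.5 CPM for Gpx4. Gstp-ps held 81.65 CPM there against 59.7 CPM for Gstp1.

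**Figure D1:**
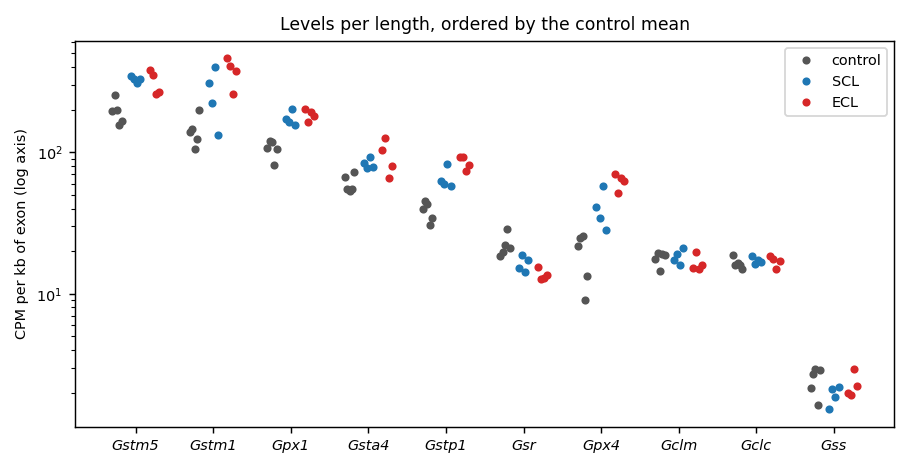
Level of each member per kilobase of exon in all 13 libraries (points, log axis), ordered from left to right by the control mean. Gstm5 and Gstm1 lead with control means of 194 and 143 CPM per kb, and Gss is lowest with 2.47 CPM per kb. Gpx4 and Gstp1 share sequence with the pseudogenes Gpx4-ps2 and Gstp-ps, so their places are less certain.

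After both lesions the 4 transferases and the 2 peroxidases rose, while the 3 synthesis enzymes passed no test and Gsr fell after ECL. After SCL, 6 of the 10 members were higher at an adjusted p-value under 0.05 and 0 were lower, where 13.1% of all 11438 genes tested were called higher and 11.8% lower. Without SCL replicate 3 this count was 3, since Gpx4, Gsta4 and Gstm1 were then not called. After ECL, 6 members were higher and 1 was lower, against 15.2% and 12.5% of 11212 genes tested. All lesioned libraries lay above all controls for 5 members after SCL and for 5 after ECL, against 12.1% and 12.8% of all genes tested. All ECL libraries lay below all controls for Gsr, against 12.2% of all genes, and no member lay so after SCL, against 11.5%. The median log2 fold change of the members was 0.58 after SCL and 0.67 after ECL, and over all genes tested it was 0.0090 and -0.0063. Both comparisons use the same 5 controls, so they are not independent of each other. In RNA from whole CA1 tissue, more cells of a type and more RNA per cell cannot be told apart.

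**Figure D2:**
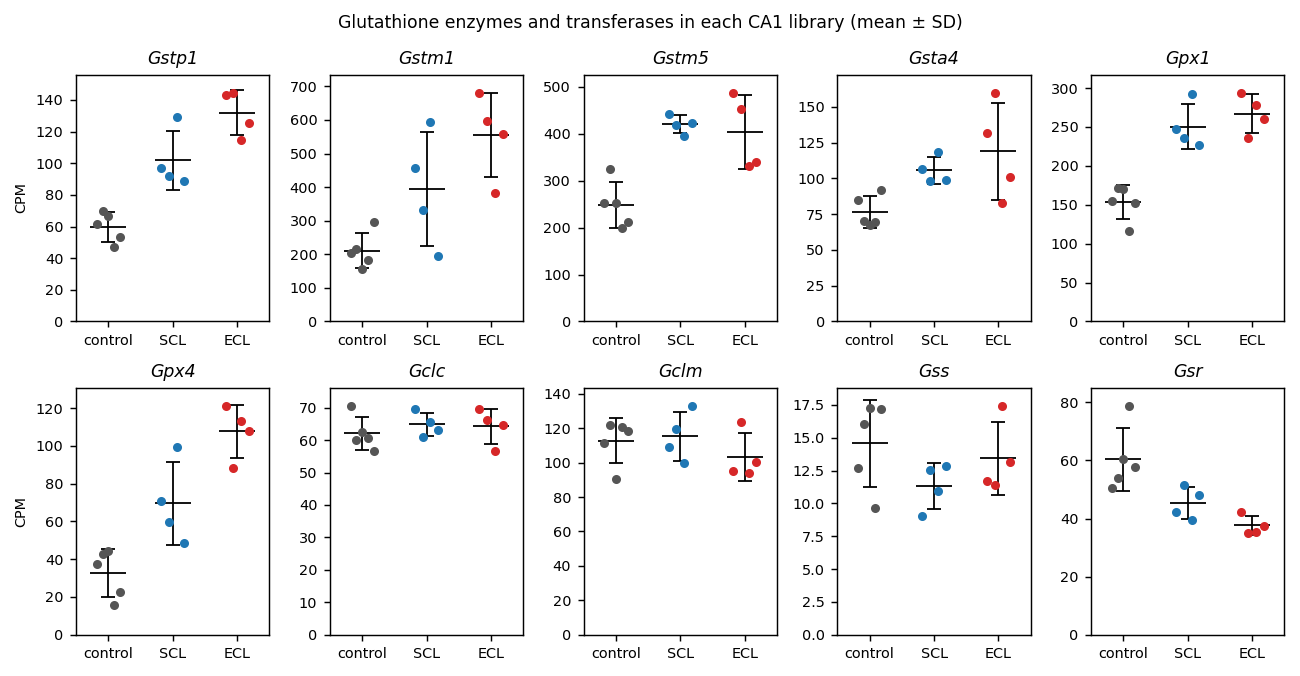
Each member's level in CPM in every library (points), with the group mean and SD (bars), each panel on its own axis from 0. After ECL all 4 libraries lie above all 5 controls for Gstp1, Gstm1, Gstm5, Gpx1 and Gpx4, and below them for Gsr, while Gclc, Gclm and Gss overlap.

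The 6 members that rose also have the fewest exon bases, which bears on every value that follows. Their exons add up to between 1266 and 1724 bases, and those of Gsr, Gclc, Gss and Gclm to between 2754 and 6291. Among all genes tested with 1200 to 1800 exon bases, 32.7% were called higher after SCL (683 genes, median log2 fold change 0.38) and 38.9% after ECL (666 genes, median 0.44). Among genes with 2700 to 6300 exon bases, 11.7% were higher after SCL (4965 genes) and 12.7% after ECL (4860 genes). A second fit therefore held an offset per library for exon length and GC content. In it 3 members were higher after SCL (Gstp1, Gpx1 and Gpx4), where 11.4% of all genes tested were called higher, and 4 after ECL (Gstp1, Gstm1, Gpx1 and Gpx4), where 14.3% were. Gsr was lower after each lesion in this fit, against 12.5% and 14.9% of all genes. What moves genes with few exon bases as a class in these libraries was not tested. Values with this offset are given beside the 6 members that rose and Gsr, and beside some of the other genes.

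**Figure D3:**
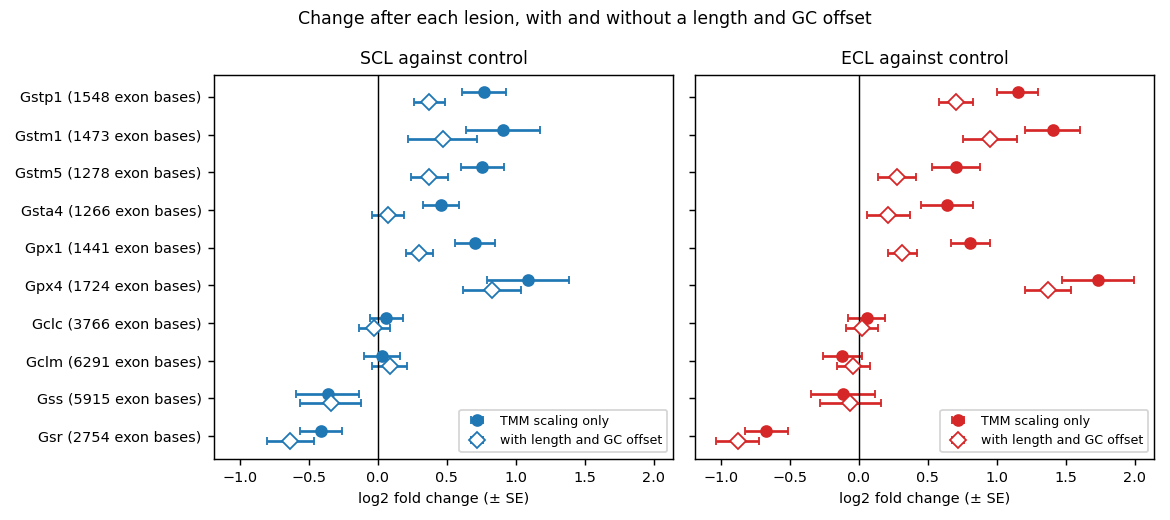
Log2 fold change of each member (± SE) after SCL (left) and ECL (right) against the same 5 controls, from the fit with TMM scaling only (filled circles) and with the length and GC offset (open diamonds). The offset lowers the 6 transferases and peroxidases, by the least for Gpx4, and lowers Gsr further below 0.

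Gstp1, the pi class glutathione transferase, lies on chromosome 19 (GRCm38, 4035407 to 4037985, minus strand). Its 5 control libraries held 61.4, 70.0, 66.8, 47.3 and 53.1 CPM. The SCL libraries held 97.1, 92.0, 129 and 89.0 CPM, and the ECL libraries 143, 144.5, 115 and 125 CPM. No lesioned library reached down to the control range, and SCL replicate 3 was the highest of its group. Gstp1 was 1.7-fold higher after SCL (log2 fold change 0.77 ± 0.16 SE, adjusted p = 0.00611) and 2.22-fold higher after ECL (1.15 ± 0.15, adjusted p = 0.000227). With the offset, the log2 fold changes were 0.37 (adjusted p = 0.0286) and 0.70 (adjusted p = 0.00115). In the fit without the offset, the call held without each of the 9 libraries in turn after either lesion.

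Gstp1 has a close copy, Gstp2, and the stretch where their coding sequences differ most is shown because it is what lets reads tell them apart. Over 633 coding bases they differ at 12 positions, the longest identical run has 303 bases, and bases 1 to 60, counted from the start codon, hold 6 of the differences (capitals):
Gstp1: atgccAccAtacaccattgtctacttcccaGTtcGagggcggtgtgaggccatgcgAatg
Gstp2: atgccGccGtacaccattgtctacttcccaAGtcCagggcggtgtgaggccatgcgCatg

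Of the 100-base stretches in Gstp1 transcripts, 74.9% occur in no other annotated gene, so part of its reads could have been counted for Gstp2 or the pseudogene Gstp-ps. Gstp2 stood at 8.37 ± 1.65 CPM in the 5 controls (mean ± SD), 8.60 ± 1.24 in the 4 SCL libraries and 7.87 ± 0.639 in the 4 ECL libraries, and passed no test (log2 fold changes 0.036 and -0.080, adjusted p = 0.922 and 0.824). Gstp-ps stood at 81.65 ± 11.3, 82.3 ± 11.7 and 100.2 ± 8.62 CPM and passed none either (log2 fold changes 0.0092 and 0.30, adjusted p = 0.969 and 0.122), but with the offset it was lower after SCL (-0.46, adjusted p = 0.0157) and with TMM factors over all symbols higher after ECL (0.49, adjusted p = 0.0361). Summed over the 3 genes, controls held 127 to 175.5 CPM, SCL libraries 173 to 234 and ECL libraries 222 to 264. The summed ranges overlapped slightly for SCL and did not overlap for ECL.

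Gstm1, a mu class transferase abundant in astrocytes, lies on chromosome 3 (108012255 to 108017973, minus strand). Controls held 204, 216, 156, 183 and 295 CPM, SCL libraries 458, 331, 592.5 and 196 CPM, and ECL libraries 681, 598, 383 and 558 CPM. SCL replicate 4 lay inside the control range, and the 4 ECL libraries all lay above it. Gstm1 was 1.87-fold higher after SCL (log2 fold change 0.91 ± 0.27, adjusted p = 0.0268) and 2.65-fold higher after ECL (1.41 ± 0.20, adjusted p = 0.00036). With the offset it stood at 0.47 after SCL (adjusted p = 0.184, no longer called) and at 0.95 after ECL (adjusted p = 0.00299). The SCL call was also lost without control replicate 1, 3 or 4 and without SCL replicate 1 or 3, with an adjusted p of up to 0.0992, and with a term for sex (adjusted p = 0.0577), while the ECL call held without each library. Of its 100-base stretches, 94.1% are unique. The pseudogene Gstm2-ps1, which shares some of the rest, rose as well (log2 fold changes 1.34 and 1.85, adjusted p = 0.0118 and 0.000288). With the offset Gstm2-ps1 stood at 0.86 and 1.345 (adjusted p = 0.0458 and 0.000919).

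Gstm5, the mu class transferase with the highest level in controls, lies on chromosome 3 (107895821 to 107898686, plus strand). Controls held 252, 325, 253, 198 and 212 CPM, SCL libraries 443, 419.5, 395 and 424 CPM, and ECL libraries 487, 452.5, 332 and 339 CPM. Both lesioned groups lay above the controls, the SCL libraries within a narrow range and the ECL libraries in an upper and a lower pair. Gstm5 was 1.69-fold higher after SCL (log2 fold change 0.76 ± 0.15, adjusted p = 0.0056) and 1.63-fold higher after ECL (0.71 ± 0.18, adjusted p = 0.00926). With the offset, 0.37 (adjusted p = 0.0596) and 0.28 (adjusted p = 0.145) remained, and neither was called. Reads were counted without regard to strand, and 13.9% of its exon bases overlap the antisense gene 4933431E20Rik, which was lower after each lesion (log2 fold changes -0.62 and -0.62, adjusted p = 0.0172 and 0.00681).

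Gsta4, an alpha class transferase known for conjugating the lipid peroxidation product 4-hydroxynonenal, lies on chromosome 9 (78182774 to 78209349, plus strand). Controls held 84.9, 69.8, 67.6, 69.1 and 92.1 CPM, SCL libraries 106.5, 98.3, 118 and 99.0 CPM, and ECL libraries 131.5, 160, 82.9 and 101 CPM. The SCL libraries all lay above the controls, and ECL replicate 3 lay among them. Gsta4 was 1.38-fold higher after SCL (log2 fold change 0.46 ± 0.13, adjusted p = 0.0233) and 1.56-fold higher after ECL (0.64 ± 0.19, adjusted p = 0.0205). With the offset its values were the closest to 0 of the 6, at 0.072 (adjusted p = 0.676) and 0.21 (adjusted p = 0.321). The SCL call was lost without control replicate 2 or SCL replicate 3 (adjusted p of up to 0.0735) and in a joint fit of all libraries (adjusted p = 0.0547), and the ECL call without ECL replicate 2 (adjusted p = 0.0813). All of its 100-base stretches are unique.

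Gpx1, the main cytosolic glutathione peroxidase and a selenoprotein, lies on chromosome 9 (108338903 to 108340343, plus strand). Controls held 155, 172, 171, 117 and 153 CPM, SCL libraries 247, 236, 292.5 and 226 CPM, and ECL libraries 294, 236, 278.5 and 260.3 CPM. The lesioned groups both lay clear of the controls and covered much the same range. Gpx1 was 1.63-fold higher after SCL (log2 fold change 0.71 ± 0.14, adjusted p = 0.00582) and 1.75-fold higher after ECL (0.81 ± 0.14, adjusted p = 0.00133). With the offset it remained called at 0.30 (adjusted p = 0.0442) and 0.32 (adjusted p = 0.0332). In the fit without the offset the call held when each library was left out, and all of its 100-base stretches are unique.

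Gpx4, the selenoprotein that reduces lipid hydroperoxides in membranes and so guards against ferroptosis, showed the largest rise of all members. It lies on chromosome 10 (80047166 to 80056439, plus strand). Controls held 37.4, 42.7, 44.2, 15.6 and 22.8 CPM, SCL libraries 70.9, 59.4, 99.2 and 48.3 CPM, and ECL libraries 121, 88.3, 113 and 108 CPM. Control replicates 4 and 5 stood below the other controls, and even the highest control stayed under the lowest lesioned library. Gpx4 was 2.13-fold higher after SCL (log2 fold change 1.09 ± 0.30, adjusted p = 0.0193) and 3.32-fold higher after ECL (1.73 ± 0.26, adjusted p = 0.000493). With the offset it stood at 0.83 (adjusted p = 0.0138) and 1.37 (adjusted p = 0.000159). The SCL call was lost without SCL replicate 3 (adjusted p = 0.0714).

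For Gpx4 the assignment of reads is the least certain of the members together with Gstp1, since 74.8% of its 100-base stretches are unique and 25.2% occur in the pseudogene Gpx4-ps2. Gpx4-ps2 held more counts than Gpx4 itself, 168 ± 72.0 CPM in controls, 277 ± 56.6 after SCL and 400.0 ± 50.1 after ECL. It was higher after ECL (log2 fold change 1.26 ± 0.27, adjusted p = 0.00402) and not called after SCL (0.71 ± 0.28, adjusted p = 0.0814). With the offset Gpx4-ps2 stood at 0.79 after ECL (adjusted p = 0.0126) and 0.31 after SCL (adjusted p = 0.304). Without control replicate 2 the SCL value was called (adjusted p = 0.0417), as it was in the joint fit (adjusted p = 0.0472) and by DESeq2 (adjusted p = 0.0401). Summed over both genes, controls held 96.8 to 286 CPM, SCL libraries 295 to 461 and ECL libraries 418 to 560. The sums, too, did not overlap between controls and lesioned cultures.

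The subunits of glutamate-cysteine ligase did not change detectably. Gclc (chromosome 9, 77754535 to 77794485, plus strand) held 70.5, 60.1, 62.4, 60.5 and 56.8 CPM in controls. It held 69.4, 61.0, 65.6 and 63.2 CPM after SCL and 69.5, 66.3, 56.5 and 64.6 CPM after ECL. The 3 groups overlapped widely, and in controls Gclc had the smallest spread of the members relative to its mean (62.05 ± 5.13 CPM, SD, n = 5). On the log2 scale it differed from controls by 0.063 after SCL (95% confidence interval -0.20 to 0.33, adjusted p = 0.736) and 0.058 after ECL (-0.23 to 0.34, adjusted p = 0.78).

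Gclm (chromosome 3, 122245557 to 122270732, plus strand) held 111.5, 122, 90.6, 121 and 119 CPM in controls. It held 109, 119, 99.8 and 133 CPM after SCL and 95.1, 123.5, 93.9 and 100.2 CPM after ECL. Neither lesion moved it beyond the control range by more than a single library. The log2 fold change was 0.033 after SCL (95% confidence interval -0.25 to 0.31, adjusted p = 0.876) and -0.12 after ECL (-0.42 to 0.19, adjusted p = 0.564).

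Gss (chromosome 2, 155563181 to 155592810, minus strand) held 12.7, 16.1, 17.3, 9.66 and 17.2 CPM in controls. It held 9.03, 12.55, 11.0 and 12.9 CPM after SCL and 11.7, 11.4, 17.4 and 13.2 CPM after ECL. All groups overlapped, and control replicate 4 was close to the lowest value of all. The log2 fold change was -0.36 after SCL (95% confidence interval -0.85 to 0.13, adjusted p = 0.253) and -0.11 after ECL (-0.61 to 0.38, adjusted p = 0.752). With the offset none of the 3 synthesis enzymes was called after either lesion. Gss had the fewest counts of the members, and 15.4% of its exon bases overlap genes on the other strand (Acss2, Gssos1 and Gssos2).

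Gsr, the reductase, was the member that moved down. It lies on chromosome 8 (33652523 to 33698163, plus strand), and controls held 50.5, 54.1, 60.6, 78.7 and 57.7 CPM. SCL libraries held 42.2, 51.5, 39.6 and 48.1 CPM, and ECL libraries 42.4, 35.2, 35.5 and 37.6 CPM. Every ECL library lay below every control, and SCL replicate 2 lay just inside the control range. After ECL Gsr fell by 0.67 ± 0.16 on the log2 scale, to 0.628 of the control level (adjusted p = 0.00706), and this call held without each library but not without a minimum on mean counts (-0.47, adjusted p = 0.0863). After SCL the log2 fold change was -0.41 ± 0.16 (adjusted p = 0.0675), which misses the threshold, and in the joint fit it passed (adjusted p = 0.0462). With the offset Gsr was called after both lesions, at -0.63 (adjusted p = 0.0184) and -0.88 (adjusted p = 0.00116). All of its 100-base stretches are unique.

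Between ECL and SCL no member was called, as none of the 12232 genes tested was by edgeR (0% called, 897 with an unadjusted p-value under 0.05, smallest adjusted p = 0.174). By DESeq2, 62 genes were called and 0 of them were members. The members with an unadjusted p-value under 0.05 numbered 2. Gpx4 was higher after ECL than after SCL by 0.64 on the log2 scale (95% confidence interval 0.19 to 1.09, adjusted p = 0.549), and Gstp1 by 0.38 (0.056 to 0.71, adjusted p = 0.629). Gstm1 differed by 0.50 with a wide interval (-0.15 to 1.15, adjusted p = 0.75). For Gstm5 (-0.054, interval -0.39 to 0.29) and Gpx1 (0.10, interval -0.19 to 0.39) the measured difference was close to 0. Gsta4 differed by 0.18 (-0.23 to 0.59), Gsr by -0.26 (-0.55 to 0.034) and Gss by 0.25 (-0.18 to 0.68). Gclc differed by less than 0.01 in size (interval -0.27 to 0.26) and Gclm by -0.15 (-0.46 to 0.16). The groups overlapped for all 10 members.

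A wider set of 89 other genes of glutathione metabolism was read in the same fits, by role. Of the 23 other transferases, 10 had enough counts after SCL and 9 after ECL, and 6 were higher in each case with 0 lower (median log2 fold change 0.67 and 0.84). Among all genes tested, 13.1% were higher and 11.8% lower after SCL, and 15.2% and 12.5% after ECL. Mgst1 and Mgst3, membrane-bound transferases of the microsomal class, were the strongest of them that kept their calls without each library and under the offset. Mgst1 stood at 188 ± 27.6 CPM in controls, 412 ± 60.55 after SCL and 448 ± 139 after ECL (log2 fold changes 1.14 and 1.26, adjusted p = 0.00126 and 0.000753). Mgst3 stood at 157 ± 45.8, 366.5 ± 70.5 and 383 ± 38.5 CPM (1.22 and 1.29, adjusted p = 0.0037 and 0.000707). Hpgds, the sigma class transferase that makes prostaglandin D2 and is known from microglia, rose after SCL (1.06, adjusted p = 0.00157) and was not called after ECL (0.45, adjusted p = 0.0821). With the offset Hpgds was called after ECL as well (0.52, adjusted p = 0.0128), and the difference between the lesions did not pass (-0.61, adjusted p = 0.531). Gstm7, another mu class transferase, was higher after SCL by 0.98 (adjusted p = 0.0348), a call lost under the offset (adjusted p = 0.15), with a term for sex (adjusted p = 0.0634) and in 6 of 9 leave-outs (control replicates 2, 3 and 4, SCL replicates 1, 2 and 3, adjusted p of up to 0.118). It was higher after ECL by 1.13 (adjusted p = 0.00936) and lost the call under the offset (0.70, adjusted p = 0.0543).

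Of the 6 other peroxidases 3 had enough counts. Gpx8, a peroxidase of the endoplasmic reticulum, was higher after both lesions (0.96 and 1.05, adjusted p = 0.0037 and 0.00428) and remained so under the offset. Gpx7, from the same compartment, was higher as well (0.97 and 0.80, adjusted p = 0.0118 and 0.0268), without a call under the offset (adjusted p = 0.21 and 0.511). Its ECL call was also lost without control replicate 1, 3 or 5 and without ECL replicate 1, 2 or 4, with an adjusted p of up to 0.082.

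Gpx3, the secreted peroxidase, held 150, 215, 146, 92.1 and 194 CPM in controls, 180.1, 170.2, 353 and 178 CPM after SCL and 412, 367, 500.0 and 594 CPM after ECL. The ECL libraries all lay above every other library, and SCL replicate 3 stood apart from its group. Gpx3 rose 2.95-fold after ECL (log2 fold change 1.56 ± 0.22, adjusted p = 0.000361) and was not called after SCL (0.46 ± 0.26, adjusted p = 0.207). With the offset Gpx3 stood at 1.145 after ECL (adjusted p = 0.000556) and 0.11 after SCL (adjusted p = 0.749). Between the lesions it differed by 1.10 ± 0.25 on the log2 scale (95% confidence interval 0.54 to 1.66), which edgeR did not call (adjusted p = 0.382). DESeq2 called this difference (adjusted p = 0.00948), as did edgeR without SCL replicate 3 (1.42, adjusted p = 0.0282) and without a minimum on mean counts (adjusted p = 6.64e-06). It was the single gene of the 89 that any alternative called between the lesions and is named for that after its values were seen.

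Of 16 genes of precursor supply, breakdown and transport tested after SCL, 2 were higher and 0 lower (median -0.068). All genes tested had 13.1% higher and 11.8% lower there. Of 15 tested after ECL, 1 was higher and 2 were lower (median -0.026), against 15.2% and 12.5% of all genes. Chac2, which degrades glutathione, was higher after both lesions (0.84 and 0.89, adjusted p = 0.018 and 0.0366), but its ECL call ended under the offset (adjusted p = 0.0553) and its SCL call without SCL replicate 1 (adjusted p = 0.056). Its ECL call was lost in 6 of 9 leave-outs as well (control replicates 1, 2, 3 and 5, ECL replicates 1 and 2). Slc7a11, the cystine transporter that brings in the limiting amino acid, stood at 34.6 ± 10.2 CPM in controls, 26.5 ± 4.86 after SCL and 21.65 ± 2.55 after ECL. It was lower after ECL (-0.67, adjusted p = 0.0308), but not with the offset (-0.40, adjusted p = 0.0966), with a term for sex (adjusted p = 0.0669) nor without control replicate 1 or 4 or any single ECL library (adjusted p of up to 0.0746). Cndp2, a dipeptidase that splits cysteinylglycine, was lower after ECL (-0.58, adjusted p = 0.0157), a call lost without ECL replicate 2 or 4 (adjusted p of up to 0.0578). Abcc4, an efflux transporter, was higher after SCL (0.77, adjusted p = 0.0441), a call lost with the replicate block (adjusted p = 0.0827), with a term for sex (adjusted p = 0.0604) and without control replicate 1, 4 or 5 or SCL replicate 4 (adjusted p of up to 0.0849), and it had enough counts to be tested in 6 of 9 leave-outs.

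Among 8 glutaredoxins and glutathione-dependent enzymes tested, 4 were higher after each lesion and 0 lower. Of all genes tested 13.1% were higher and 11.8% lower after SCL, and 15.2% and 12.5% after ECL. Esd, S-formylglutathione hydrolase, rose by 0.73 and 0.72 (adjusted p = 0.00305 and 0.00262), and Glrx, the cytosolic glutaredoxin, by 0.82 and 0.93 (adjusted p = 0.0188 and 0.00386). Both kept their calls with the offset, and Glrx lost the SCL call without SCL replicate 1 or 3 (adjusted p of up to 0.0667). Glrx3, a glutaredoxin, rose by 0.48 and 0.49 (adjusted p = 0.0489 and 0.0354), and each call was lost in 7 of 9 leave-outs (adjusted p of up to 0.145 and 0.0926), kept after SCL without control replicate 5 or SCL replicate 4 and after ECL without control replicate 5 or ECL replicate 3. Of 9 genes listed for NADPH supply, among them genes of the pentose phosphate pathway, 2 were higher and 1 was lower after each lesion. Taldo1, transaldolase, rose (0.79 and 0.82, adjusted p = 0.00535 and 0.00269) while Tkt, transketolase of the same pentose phosphate branch, fell (-0.69 and -0.89, adjusted p = 0.0126 and 0.000912), and neither changed its call in a leave-out or under the offset. G6pdx, which opens that pathway, rose by 1.01 after ECL (adjusted p = 0.00575). Its rise after SCL (0.73, adjusted p = 0.0354) ended under the offset (adjusted p = 0.0784) and in 6 of 9 leave-outs (control replicates 3, 4 and 5, SCL replicates 1, 2 and 3).

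Of 12 regulators and targets of Nrf2 tested, 1 was higher and 1 lower after SCL, and 0 were higher and 2 lower after ECL (medians -0.064 and -0.27). Nqo1 and Osgin1, from the same list, had too few counts to be tested against controls. Nqo1 held 2.956 to 5.025 CPM in controls, 6.82 to 7.877 after SCL and 6.905 to 10.04 after ECL. All lesioned libraries lay above all controls for Nqo1. Osgin1 averaged 1.307 CPM in controls, 0.6456 after SCL and 1.198 after ECL, and its groups overlapped. Nfe2l2 itself passed no test (0.065 and -0.23, adjusted p = 0.788 and 0.305). Keap1, the adaptor that marks Nrf2 for degradation, was lower after ECL (-0.78, adjusted p = 0.00894) and not called after SCL (-0.39, adjusted p = 0.141). Maff, a small Maf protein that pairs with Nrf2, was lower after both (-0.94 and -0.89, adjusted p = 0.0489 and 0.0345), but the SCL call was lost in 8 of 9 leave-outs (kept without control replicate 4) and the ECL call in 6 of 9 (control replicates 1, 2 and 3, ECL replicates 1, 2 and 4). With TMM factors over all symbols neither was called (adjusted p = 0.109 and 0.0866). Sqstm1, a target of Nrf2 and an autophagy receptor, was higher after SCL (0.47, adjusted p = 0.0435) and not called after ECL (0.35, adjusted p = 0.117). Its SCL call was lost in 7 of 9 leave-outs (kept without control replicate 2 or 3) and with the offset (adjusted p = 0.0516), and with TMM factors over all symbols the ECL value was called (adjusted p = 0.0482). Of 6 genes for selenoprotein synthesis, on which Gpx1 and Gpx4 depend, only Sephs2 was called. Sephs2, selenophosphate synthetase, stood at 85.2 ± 34.6 CPM in controls, 34.1 ± 5.19 after SCL and 28.2 ± 2.73 after ECL, and fell after each lesion (-1.31 and -1.59, adjusted p = 0.0042 and 0.000593). Over all 89 genes, 17 were higher and 3 lower of 64 tested after SCL (median 0.26), against 13.1% and 11.8% of all genes tested. After ECL, 16 were higher and 6 lower of 62 (median 0.084), against 15.2% and 12.5%. Without a single library the number called ranged from 10 to 17 after SCL, lowest without SCL replicate 1, and from 14 to 24 after ECL, lowest without ECL replicate 1.

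**Figure D4:**
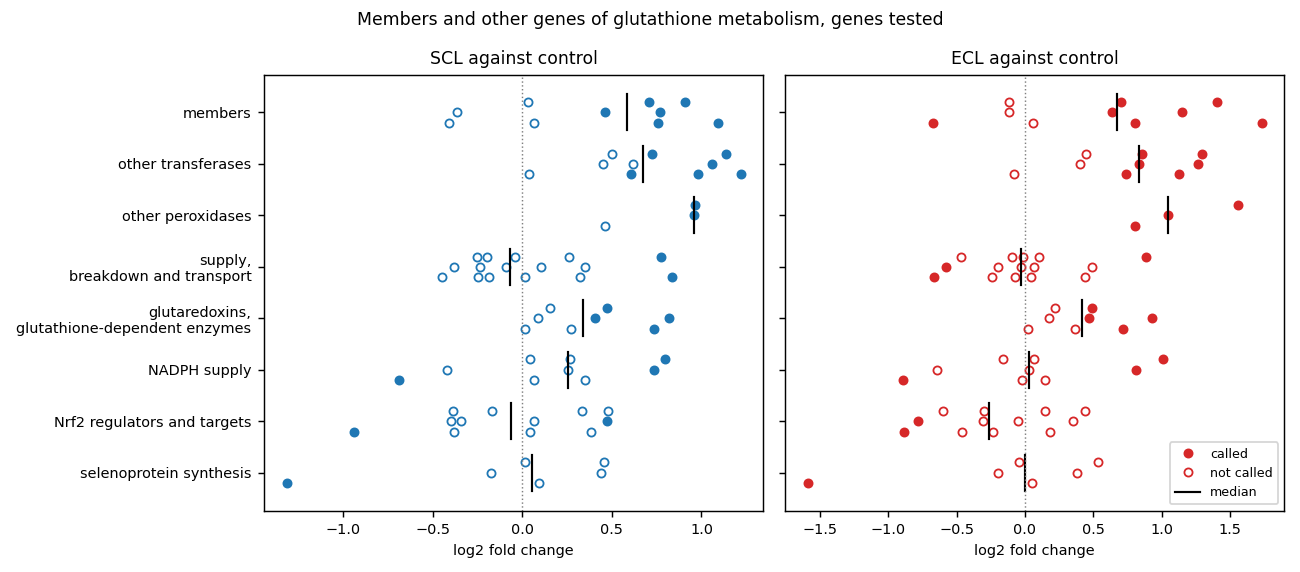
Log2 fold change of every gene tested in the members and in 7 other groups of glutathione genes, after SCL (left) and ECL (right). Filled points passed an adjusted p-value of 0.05 in edgeR, open points did not, and the black bars are the medians (members 0.58 and 0.67, other peroxidases 0.96 and 1.05, supply, breakdown and transport -0.068 and -0.026).

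Promoters were searched for the core of the antioxidant response element, TGACNNNGC, on both strands, in RefSeq windows of 300 bases (GRCm38.p6, 250 bases before to 50 after the start). Windows existed for 7 of the 10 members. The core was present in 2 of these 7, Gstm5 and Gclm, against 14% of 27025 genes and 12.4% of 32851 windows, and in 17 of 80 other glutathione genes with a window. In Gstm5 it begins 42 bases before the start on the plus strand, and in Gclm 134 bases before the start, read on the minus strand. Both are shown, in the direction of the gene with the core in capitals, since the first belongs to a member that rose and the second to a member that did not. The Gstm5 stretch is chr3:107895786-107895846, and the Gclm stretch is chr3:122245397-122245457, each on the plus strand:
Gstm5: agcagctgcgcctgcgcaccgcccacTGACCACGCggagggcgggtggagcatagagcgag
Gclm: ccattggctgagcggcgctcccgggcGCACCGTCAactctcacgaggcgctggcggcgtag

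These matches describe letters in the window and were not tested as binding sites.

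Markers of cell types moved with the lesions in part. The summed level of 10 microglia markers ran from 514 to 612.5 CPM in controls, 1026 to 2294 CPM in SCL cultures and 1216 to 1629 CPM in ECL cultures, and 10 of them were called higher after SCL and 7 after ECL. The sum of 10 astrocyte markers ran from 8482 to 13762 CPM in controls, 10312 to 13962 in SCL cultures and 9584 to 12515 in ECL cultures. In it 4 markers were higher and 1 lower after SCL, and 3 were higher after ECL. The sum hides opposite moves of group means in controls, SCL and ECL. Gfap averaged 1894 ± 115, 3419 ± 305 and 3122 ± 247 CPM (SD), and Slc1a3 4068 ± 1426, 3099 ± 232 and 3029 ± 349 CPM. The spread of Slc1a3 in controls was wide, and 0 astrocyte markers were called lower after ECL. The sum of 10 oligodendrocyte markers ran from 4736 to 6359, from 4600 to 5896 and from 4108 to 6346 CPM, with 2 higher after each lesion. That of 6 neuron markers ran from 2257 to 2875, from 2049 to 3106 and from 1993 to 3320 CPM, with 1 lower after each. Snap25 alone averaged 1679 CPM in controls, so this sum mostly follows 1 gene. Sums of 7 endothelial markers were low, 24.7 to 41.9 CPM in controls, 13.75 to 18.6 after SCL and 12.3 to 20.3 after ECL. Those of 6 fibroblast markers were 49.98 to 146, 59.1 to 104.0 and 49.3 to 230 CPM. Dcn made up most of the fibroblast sum, with group means of 71.2, 59.0 and 93.7 CPM. Col3a1 (3.91, 0.827 and 0.484 CPM) and Col1a2 (4.69, 1.42 and 2.21 CPM) were low, with lower group means after each lesion. Col6a1, a more abundant collagen gene, averaged 25.4, 20.5 and 22.5 CPM. Of the fibroblast markers 2 had enough counts to be tested, and 0 were called after either lesion. No marker was at 0 in all libraries. Beside these counts of markers called, 13.1% of all genes tested were higher and 11.8% lower after SCL, and 15.2% and 12.5% after ECL. The part of cell composition in the members' values was not tested.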

How the data were processed

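The 13 libraries were made from polyadenylated RNA with a low-input kit. The authors trimmed reads with cutadapt 3.5, mapped them with STAR 2.7.8a to mm10 and counted them on GENCODE M25 without regard to strand with featureCounts 2.0.1. The deposited values are these raw counts per gene, not normalized. In each library 63% to 74.3% of low counts (1 to 20) were even, so mates may have been counted separately, and a fit of halved counts was added. How reads with several alignments were treated is not given in the sources used here.

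Members and gene lists were chosen with earlier results of these data known. Named are all members, per other list at most 3 called genes with the largest change, and genes sharing sequence with a member. Nfe2l2, Nqo1 and Osgin1 were named besides, after their values were seen. Each comparison had its own edgeR 4.0.16 quasi-likelihood fit in R 4.3.3 (two-sided, Benjamini-Hochberg, threshold 0.05) of genes whose normalized counts averaged 150 or more, with TMM factors over the genes tested. The code was tested on simulated data. P-values measure the spread between cultures, which may share an animal. Exon lengths and coordinates come from GENCODE M21 (GRCm38). Alternatives were DESeq2 1.42.0, other scalings, no mean minimum, a joint fit, halved counts, a sex term, a replicate block, a length and GC offset (mgcv 1.9.3) and leaving out each library. Libraries were left out only in the fit without the offset. No batch or date is given.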

Additional observations from a re-analysis of the deposited data

Results flagged for a closer look

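In 111 groups of 4 or 5 libraries, 7 held a library far from the others, where chance flags about 1 in 20. The groups were those of 10 members and 27 other genes named, 3 groups each, without Nqo1 and Osgin1. None of the 7 was a group of a member. Gpx3 stood at 353 CPM in SCL replicate 3, against 170.2 to 180.1 CPM in the other SCL libraries. Maff, a partner of Nrf2, stood at 3.10 CPM in the same library, against 6.54 to 7.06. Gpx4-ps2, the pseudogene that shares sequence with Gpx4, stood at 361 CPM there, against 244 to 256. In SCL replicate 4 Nfe2l2 stood at 138 CPM, against 102 to 106.5. In control replicate 3, Mgst1 stood at 139 CPM, against 193 to 209, and Glrx at 20.5 CPM, against 25.7 to 27.8. Sqstm1, a target of Nrf2, stood at 348 CPM in ECL replicate 1, against 294 to 299 in the other ECL libraries.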

How the results depend on the processing

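The number of members called was the same within 1.5 times under DESeq2, every scaling, the joint fit, halved counts and the sex term, for each comparison. With the offset 4 members were called after SCL and 5 after ECL, of which 3 and 4 were higher, against 6 and 6 higher without it, and Gsr was lower in both. Leaving out a library gave 3 to 6 members after SCL, with 3 without SCL replicate 3, and 6 to 7 after ECL. Replicates carry the numbers of the library titles, which differ from the numbers in the column headings, and no block by the latter was run. Deviations of libraries with the same title number correlated between -0.175 and 0.549. Libraries with different numbers were not compared, so these values cannot show whether the title numbers pair the samples. With a replicate block 6 members were called after SCL and 7 after ECL, as without it. The other glutathione genes called after SCL went from 20 to 13 with the block. Leave-outs gave 10 to 17 of these after SCL, 14 to 24 after ECL (22 with all libraries) and 0 to 1 between ECL and SCL, where DESeq2 and the fit without a mean minimum also called 1. Signs turned for values near 0. Gclc after SCL was -0.024 with the offset, and Gclm after SCL ran from -0.042 to 0.10 over the leave-outs. With TMM factors over all symbols or no mean minimum, Gclm after ECL was 0.062, Gss after ECL 0.061 and Cndp2 after SCL 0.12. After SCL, Nfe2l2 was -0.0025 with the offset and -0.045 to 0.15 over the leave-outs, Gstp2 -0.38 with the offset and -0.048 to 0.16, and Gstp-ps -0.46 with the offset, -0.0089 with the replicate block and -0.062 to 0.088. After ECL, Gstp2 was 0.11 with TMM factors over all symbols and without a minimum and -0.17 to 0.036 over the leave-outs, and Gstp-ps -0.24 with the offset. Between lesions Gstm5 was 0.021 with the sex term and -0.15 to 0.026 over the leave-outs, and Gclc 0.032 with the offset, 0.037 with the sex term and -0.044 to 0.049 over the leave-outs. The cause was not tested.

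TMM factors over all symbols moved the median of all genes tested to 0.21 (SCL) and 0.18 (ECL), and 2516 of 3112 and 2435 of 3130 calls were then higher, against 1504 of 2848 and 1708 of 3114. Without a mean minimum 5390 and 8034 genes were called, and Gsr lost its ECL call. Of the other genes named, Slc7a11 and Cndp2 after ECL lost their calls with TMM factors over all symbols and without a minimum, and Hpgds after ECL gained one in both. Without a minimum 4933431E20Rik lost both calls (adjusted p = 0.144 and 0.127), and with TMM factors over all symbols its SCL call (adjusted p = 0.0795). Without a minimum Tkt after SCL was not called (adjusted p = 0.0806) and Gpx3 after SCL was (adjusted p = 0.00669). With the replicate block Glrx after SCL (adjusted p = 0.0582) and Gpx7 after ECL (adjusted p = 0.0529) were not called. Between lesions DESeq2 called 62 genes and the fit without a minimum 217. In the joint fit Gsr was called after SCL and Gsta4 was not, and the sex term ended the SCL call of Gstm1. Depth limits Gss most, with 177 to 730 counts a library.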
